A study of Mus musculus with 6 samples.

Results

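The cells described here were taken from pancreatic lymph nodes by a gate meant for monocytes, and 101 of 56310 cells passed it. A cell needed at least 1 Lyz2 UMI (unique molecular identifier, 1 captured RNA molecule) and at least 2 of 8 genes detected: Ly6c2, Ccr2, Csf1r, Fcgr1, Ifitm3, Plac8, Cebpb and Cd14. It also had to have 0 UMIs of the T cell gene Cd3e, the B cell genes Cd79a and Ms4a1, the macrophage complement genes C1qa, C1qb and C1qc, and the dendritic cell gene Fscn1. All cells counted had at least 500 UMIs, at least 300 genes and at most 10% mitochondrial UMIs. Measured expression chose these cells, so how they differ from other cells is described and not tested.

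Single-cell RNA was sequenced from 6 mice. The Cre-positive mice (1 to 3) carried a floxed gene together with the CD4-Cre transgene, and the Cre-negative mice (1 to 3) carried the same floxed gene without it. Cre recombinase cuts out DNA between loxP sites, and the Cd4 elements of this transgene drive it in T cells. Monocytes lie outside that lineage, while some gated cells held T cell markers, as described below. The labels give neither strain, sex nor age. The gate kept 17, 24 and 15 cells in Cre-positive mice 1 to 3, and 9, 17 and 19 cells in Cre-negative mice 1 to 3. Summed over these cells, a mouse had between 78865 and 151172 UMIs, which limits the genes that can be compared.

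Monocytes form in bone marrow and circulate in blood. In the mouse, classical monocytes carry high Ly6C and the chemokine receptor CCR2, leave the blood at inflamed sites and can become macrophages or antigen-presenting cells. Nonclassical monocytes have low Ly6C, carry CX3CR1 and patrol the vessel wall. Both depend on the growth factor receptor CSF1R and make lysozyme, which Lyz2 encodes.

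The markers bore out the name for few of the 101 cells. Ly6c2, the defining gene of classical monocytes, was found in 7 cells with 26 UMIs in all. Of the other markers given for the class, Ccr2 was found in 32 cells, Csf1r in 40 and Ifitm3, an interferon-induced antiviral membrane protein, in 73. Lyz2 was in every cell by the rule. A single cell held all 5 of these markers, and 33 cells held none of Ly6c2, Ccr2, Csf1r, Fcgr1 and Cd14. Those 33 passed through Ifitm3, Plac8 and Cebpb alone, and Ifitm3 with Plac8 was the commonest pair, in 17 cells that had none of the other 6. The cells are therefore called gated cells here, and not monocytes.

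**Figure D1:**
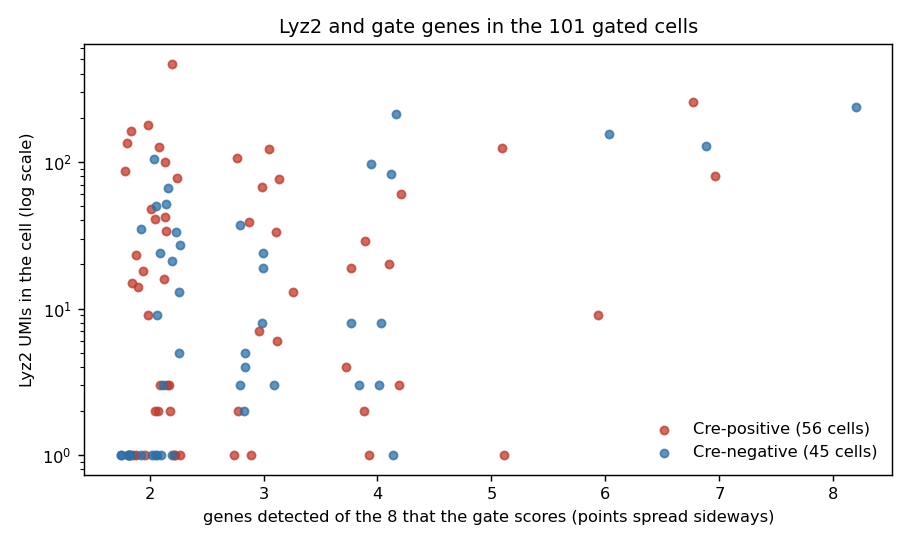
Lyz2 UMIs in each of the 101 gated cells (vertical log axis) against how many of the 8 scored genes were detected in it (horizontal axis, points spread sideways), red for the 56 cells of Cre-positive and blue for the 45 of Cre-negative mice. Most cells stand at 2 genes, with Lyz2 from 1 UMI up to 468.

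Most gated cells stood at the edge of the gate. Of the 101, 56 had exactly 2 of the 8 genes, 21 had 3, 16 had 4 and 8 had 5 or more. Lyz2 had a median of 9 UMIs, and 24 cells had exactly 1. The next cells outside the gate were 90 with 1 of the 8 genes, at a median of 2 Lyz2 UMIs, and 301 with at least 2 of the genes but no Lyz2. Siglech, a surface lectin of plasmacytoid dendritic cells, was detected in 47.5% of those 301. A further 170 cells failed through exactly 1 excluded gene.

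Lymphocytes, which should lack Lyz2, give a level to set beside that of the gated cells. How much of it is free RNA in the droplets was not tested, and the highest T cell held 2243 Lyz2 UMIs. Lyz2 was detected in 5.30% of 36022 T cells (Cd3e detected, no Cd79a or Ms4a1; median depth 5201 UMIs) and 5.25% of 11662 B cells (Cd79a and Ms4a1 detected, no Cd3e; median depth 4443 UMIs). Of the 1910 T cells with Lyz2, 81.5% had exactly 1 UMI and 122 reached 10, which is 0.339% of all T cells. The gated cells, all with Lyz2 by the rule, had a median depth of 5120 UMIs, and 50 of the 101 reached 10 Lyz2 UMIs. Cebpb, a transcription factor of myeloid differentiation, was in 52.5% of the gated cells, in 27.6% of T cells and in 47.1% of B cells. Plac8, a gene of monocytes and of several lymphocyte types, was in 67.3% of the gated cells, in 9.63% of T cells and in 38.3% of B cells. Ifitm3 was in 72.3% of the gated cells and in 0.880% of T cells, and Csf1r in 39.6% and 0.250%. The gate chose cells by Lyz2 and these genes, so their excess over lymphocytes follows in part from that choice.

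**Figure D2:**
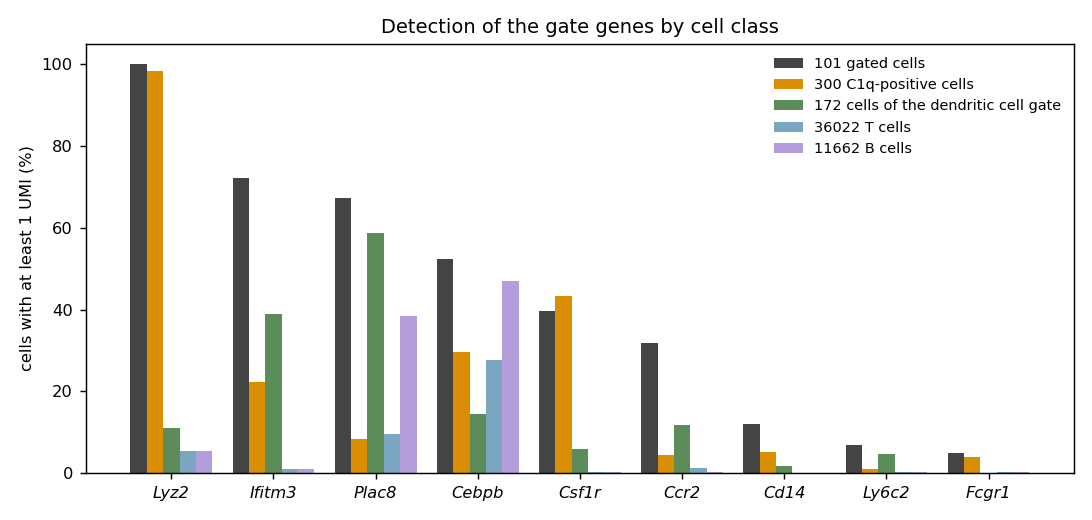
Percent of cells with at least 1 UMI of each gene the gate uses, in the gated cells, in 300 cells with at least 2 C1q genes, in 172 cells of a gate for conventional dendritic cells, in T cells and in B cells. Lyz2, Ifitm3, Csf1r and Ccr2 stand above the lymphocytes, while Cebpb in B cells comes close to the gated cells. The gated cells were chosen by these genes.

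Levels are given as CPM, the UMIs of a gene scaled to 1e6 UMIs of the gated cells of a mouse. Lyz2 (chromosome 10, 117277331 to 117282321, minus strand, GRCm38) stood at 10410, 6055 and 8338 CPM in Cre-positive mice 1 to 3 and at 5562, 7947 and 1641 CPM in Cre-negative mice 1 to 3. The lowest value was that of Cre-negative mouse 3, and the groups overlapped. Cells with at least 2 C1q genes, a gate for macrophages, averaged 34304 ± 9052 CPM of Lyz2 (SD, n = 6 mice). The neighbouring and nearly identical gene Lyz1 gave 0.715 UMIs per 100 Lyz2 UMIs in the gated cells and 5.65 in the C1q-positive cells. How the counting assigned reads of these paralogs was not tested.

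Markers of several cell types, which the gate did not use, were detected in the gated cells. At least 2 markers of conventional dendritic cells were detected in 56 of the 101 cells, at least 2 of plasmacytoid dendritic cells in 53, of T cells in 25, of macrophages in 21, of nonclassical monocytes in 20 and of neutrophils in 3. These counts share cells, since a cell can hold markers of several lists. The summed T cell markers averaged 489 CPM in the gated cells, 625 CPM in the C1q-positive cells and 6324 CPM in all cells not gated. Plasmacytoid markers averaged 2334, 1768 and 459 CPM in the same order, and conventional dendritic markers 1568, 582 and 107 CPM. Siglech, of the plasmacytoid list, was detected in 12 of the gated cells. H2-Aa, a chain of the class II molecule that presents antigen to CD4 T cells, was found in 81 cells and Cd74, the class II invariant chain, in 88. Scrublet scored 10 of the 101 as doublets: 1, 6 and 0 in Cre-positive mice 1 to 3, and 1, 2 and 0 in Cre-negative mice 1 to 3. The genotype comparisons below were repeated without doublets and without cells that hold lymphoid, neutrophil or dendritic UMIs. By the test of edgeR, 0 genes passed in each repeat. An unadjusted p under 0.05 was given to 24 of 1298 genes tested without doublets and 21 of 927 without lymphoid UMIs. It was given to 29 of 1411 without neutrophil UMIs and 48 of 464 without dendritic UMIs, against 26 of 1464 in the main test. The part of free RNA was not tested.

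Clustering of the gated cells gave 7 groups, which are described by their leading genes and carry no cell type name. The clustering used 1000 variable genes, and the genes of the gate, such as Fcgr1 and Cd14, were not set aside for it. Leading genes were taken from the same counts, so the genes below describe the groups and are no test of them. Cluster 5, with 10 cells, came nearest to the markers of monocytes. It was led by the interferon-induced chemokine Cxcl10, the lectins Clec4e and Clec4a3, the ribonuclease Ear2, haptoglobin (Hp) and Cd14, the co-receptor for lipopolysaccharide. All 5 cells with Fcgr1, the high-affinity IgG receptor, were in it, and so were 8 of the 15 with Cx3cr1 and 7 of the 16 with Treml4, a receptor of nonclassical monocytes. Ace, found on nonclassical monocytes, had 21 UMIs in 6 of its cells and 0 in all other clusters. Ly6c2 was found in 1 cell of cluster 5. The same cluster holds the single gated cell with S100a9, a calprotectin subunit abundant in neutrophils, with 78 UMIs. The neutrophil markers Csf3r and S100a8 were in 5 and 2 of its 10 cells. All 3 gated cells with at least 2 neutrophil markers were in it.

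Cluster 2, with 23 cells, had the highest Lyz2 level of the 7, at 21961 CPM. It was led by Fxyd2, the phospholipase Pla2g2d, the haem oxygenase Hmox1, the tetraspanin Cd63, Apoe (a lipid carrier made by macrophages) and the scavenger receptor Marco. Apoe was detected in 16 of its 23 cells, against 10 of the 78 gated cells outside it. At least 2 of the macrophage markers that the gate left free were found in 13 of these cells. The macrophage markers Mertk and Mrc1 were at 0 UMIs in all 101 gated cells, as C1q was by the rule.

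Clusters 1, 3 and 4 were rich in class II. Cd74 was detected in all 23, 17 and 11 of their cells, at 16810, 26445 and 29640 CPM. Cluster 3 was led by Cd207, Xcr1 and Naaa, genes of dendritic cells, though Cd207 came from 2, Xcr1 from 3 and Naaa from 6 of its 17 cells. Cluster 4 was led by Vsx1, Atf3, Rgs1 and Mmp12, and Itgax, the integrin chain CD11c, was in 10 of its 11 cells and Cd209a in 9. Cluster 1 was led by Pclaf, Xlr and Atox1, which were detected in 2, 9 and 23 of its 23 cells, and its median cell had 3 Lyz2 UMIs.

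Clusters 6 and 7 had a median of 1 Lyz2 UMI per cell. Cluster 7, with 8 cells, was led by Siglech, Cd209d, Cox6a2, Klk1, Ccr9 and Tcf4, genes of plasmacytoid dendritic cells, and no cell in it had more than 3 Lyz2 UMIs. It held 4 of the 7 gated cells with Ly6c2 and 15 of the 26 Ly6c2 UMIs. Ccr2 was in 7 of its 8 cells, while Csf1r, Ifitm3 and Fcgr1 were at 0. Cluster 6, with 9 cells, was led by Stat4, Cd3g, Thy1, Lck and Cd3d, genes of T cells and of innate lymphocytes. A single cell held 105 of its 118 Lyz2 UMIs.

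**Figure D3:**
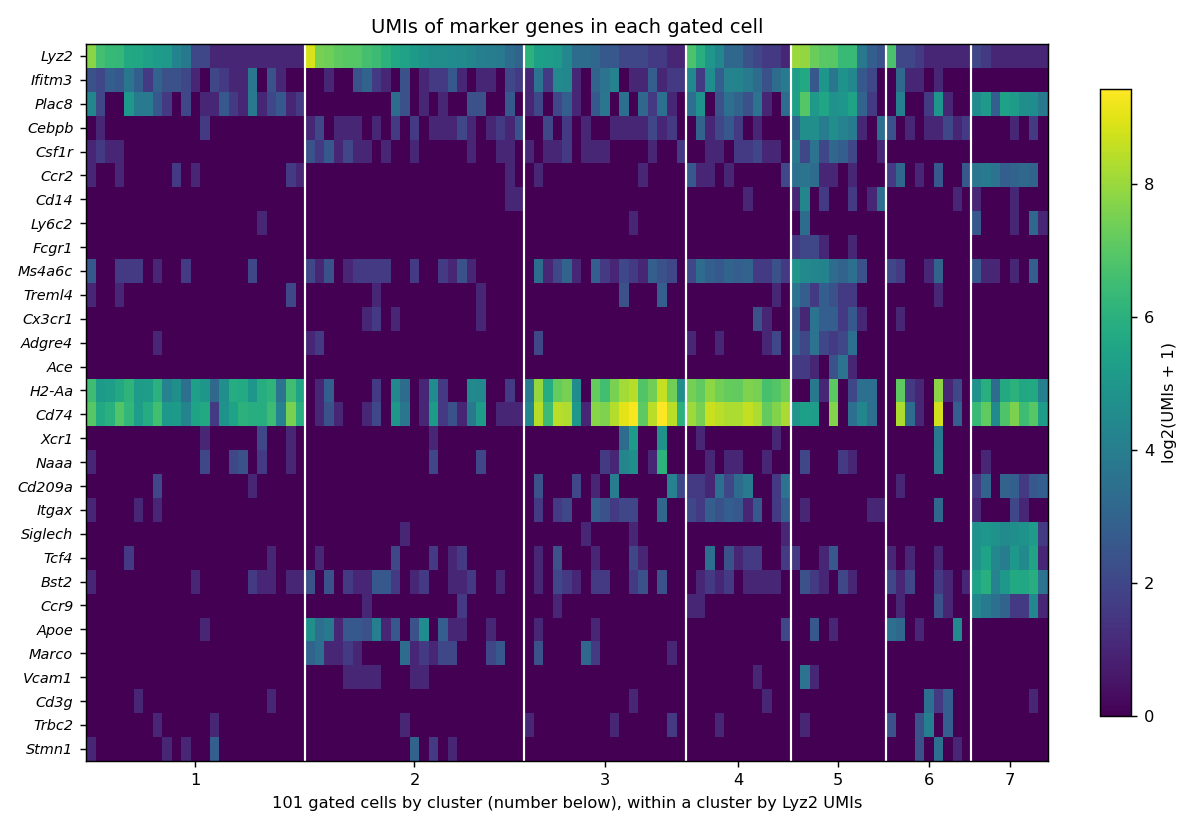
UMIs of 30 genes (rows, log2 of UMIs plus 1) in the 101 gated cells (columns), grouped by cluster 1 to 7 and within a cluster by Lyz2. All Fcgr1 and Ace UMIs and most of those of Treml4, Cx3cr1 and Adgre4 lie in cluster 5, Apoe and Marco mostly in cluster 2, H2-Aa and Cd74 are high in clusters 1, 3 and 4, and Siglech lies in cluster 7.

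The 8 cells with 5 or more of the scored genes were 3, 1 and 1 in Cre-positive mice 1 to 3 and 1, 2 and 0 in Cre-negative mice 1 to 3. They had a median depth of 10909 UMIs and a median of 126.5 Lyz2 UMIs. Among them 6 cells held Treml4, 6 held Cx3cr1 and 6 held Adgre4, a receptor of nonclassical monocytes, while 2 held Ly6c2. Of the 93 cells with fewer genes, 10 held Treml4 and 9 held Cx3cr1. Of these 8 cells, 7 were deeper than the median gated cell and 1 was shallower, at 1838 UMIs. Of the 8, 1 lay in cluster 7, with 25 Siglech and 1 Lyz2 UMI.

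Beside the nearest other classes, the gated cells differed in genes the gate had not used. The genes were ranked by ratio among those over 100 CPM in the gated cells of every mouse, so they are a description. Against 172 cells of the conventional dendritic cell gate, Apoe led, with 265 ± 79.3 CPM in the gated cells and 1.62 ± 2.51 CPM in the dendritic gate (SD, n = 6 mice). Cybb, the catalytic chain of the phagocyte oxidase, had 523 ± 250.3 CPM in the gated cells and 43.9 ± 33.5 CPM in the dendritic gate. Ifitm2 and Ehd1 followed, with 279 and 246 CPM in the gated cells and 42.1 and 40.7 CPM in the dendritic gate. Zeb2, a transcription factor of myeloid cells and next in rank, had 311 ± 76.3 CPM in the gated cells and 62.0 ± 59.7 CPM in the dendritic gate. Apoe, Cybb and Zeb2 were each higher in the gated cells of all 6 mice, which the limit and the ranking favour. Apoe was detected in 25.7% of the gated cells and in 93.3% of the C1q-positive cells. Cluster 2 held 69.9% of the Apoe UMIs of the gated cells. Against the 300 C1q-positive cells, Ifitm6 led, with 238 ± 172 CPM in the gated cells and 40.1 ± 31.2 CPM in the C1q-positive cells, followed by Lyst, a regulator of lysosomal traffic. Class II stood lower than in the dendritic gate: H2-Aa had 8549 ± 3712 CPM in the gated cells and 12783 ± 1680 CPM in the dendritic gate.

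The share of gated cells among all cells was compared between genotypes. It was 0.163%, 0.231% and 0.156% in Cre-positive mice 1 to 3, and 0.123%, 0.197% and 0.192% in Cre-negative mice 1 to 3. The exact (Clopper-Pearson) 95% interval of a single mouse was as wide as 0.148% to 0.343% in Cre-positive mouse 2, and it covers counting error only. The groups overlapped, with 0.183% ± 0.0413 in the Cre-positive and 0.170% ± 0.0411 in the Cre-negative mice (SD, n = 3 each; exact two-sided permutation p = 0.8). With 3 mice against 3, p cannot fall below 0.1. As a share of cells with no Cd3e, Cd79a or Ms4a1 UMI, the gated cells were 2.96% ± 0.604 in the Cre-positive mice and 2.10% ± 0.415 in the Cre-negative mice (exact permutation p = 0.3). The direction turned under 5 of 17 alternatives, among them leaving out Cre-positive mouse 2 or Cre-negative mouse 1.

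Gated cells with at least 10 Lyz2 UMIs, a limit chosen after seeing the data, did not overlap between genotypes. They made up 0.0958%, 0.106% and 0.104% of cells in Cre-positive mice 1 to 3 and 0.0684%, 0.0925% and 0.0605% in Cre-negative mice 1 to 3, with an exact permutation p of 0.1, the smallest possible. Thinning every cell to 1000 UMIs before the gate gave 58 cells, 38 of them among the 101. Their share reached 0.0967% ± 0.0165 in the Cre-positive mice and 0.114% ± 0.00282 in the Cre-negative mice, in the other direction and also at p = 0.1 in the exact permutation test.

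Ly6c2 was too rare to compare. It had 0, 9 and 1 UMIs in Cre-positive mice 1 to 3 and 0, 10 and 6 UMIs in Cre-negative mice 1 to 3. At full depth 5.0% ± 4.41 of the gated cells in the Cre-positive and 7.43% ± 6.46 in Cre-negative mice had a UMI (exact permutation p = 0.6). After each gated cell was thinned to 1000 UMIs, which left out 3 of 56 Cre-positive and 1 of 45 Cre-negative cells as too shallow, 2 of 97 still had one (2.06%). Its mean came to 1.39% in the Cre-positive and 1.75% in the Cre-negative mice (exact permutation p = 1). At full depth Ly6c2 was detected in 0.103% of T cells and in 6.93% of the gated cells, which were chosen in part by this gene.

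At least 2 of 8 nonclassical markers (Treml4, Ace, Cd300e, Eno3, Spn, Cx3cr1, Adgre4 and Fabp4) were found in 35.3%, 4.17% and 20% of the gated cells in Cre-positive mice 1 to 3, and in 22.2%, 17.6% and 26.3% in Cre-negative mice 1 to 3. The Cre-positive mice held both the highest and the lowest share (exact permutation p = 0.8). After thinning, 4 of 97 cells passed. The means were then 2.22% ± 3.85 in the Cre-positive and 5.92% ± 6.28 in the Cre-negative mice (exact permutation p = 0.7).

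The class II genes H2-Aa, H2-Ab1, H2-Eb1 and Cd74 together stood at 17054, 48892 and 55357 CPM in Cre-positive mice 1 to 3, and at 21366, 33839 and 46510 CPM in Cre-negative mice 1 to 3. The lowest and the highest mouse were both Cre-positive, and the means were 40434 ± 20504 in the Cre-positive and 33905 ± 12572 in the Cre-negative mice (exact permutation p = 0.7). Without Cre-positive mouse 3 the difference turned to -932 CPM. Markers of conventional dendritic cells moved over a like range, with 12 of 12 detected and a summed level of 533 to 2553 CPM in the Cre-positive and 1070 to 2375 CPM in Cre-negative mice. Without the gated cells that hold at least 2 genes of the dendritic gate, the class II difference was 5111 CPM, against 6529 CPM with them. Gated cells with at least 10 Lyz2 UMIs, a limit chosen after seeing the data, were also compared. Their class II level was 39378 ± 17741 CPM in the Cre-positive and 16885 ± 937 CPM in the Cre-negative mice (exact permutation p = 0.1, the smallest possible). It was 19055, 47308 and 51771 CPM in Cre-positive mice 1 to 3 and 17909, 16676 and 16071 CPM in Cre-negative mice 1 to 3. Cre-positive mouse 1 thus lay near the Cre-negative mice.

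**Figure D4:**
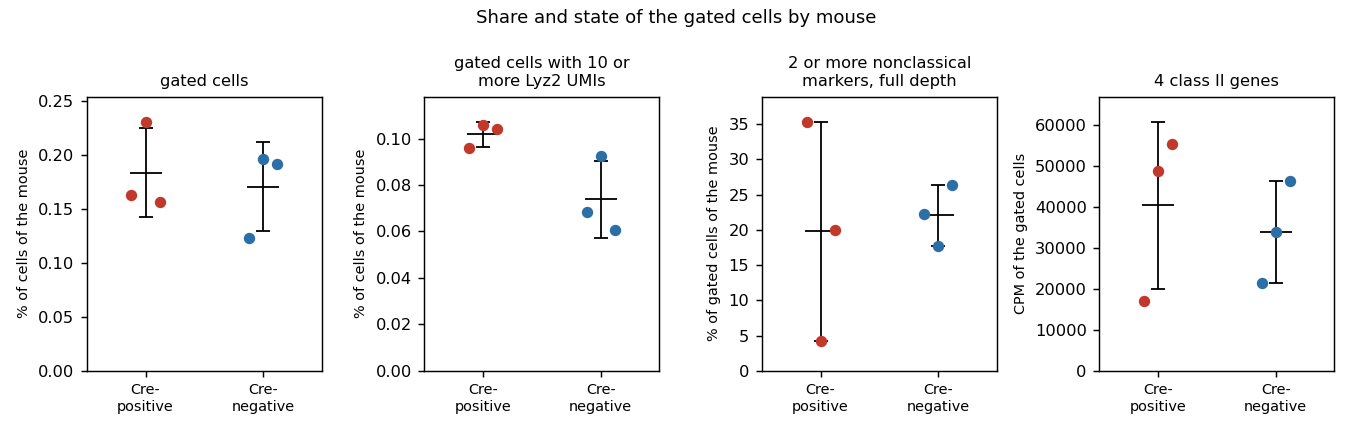
Values by mouse (points), with the group mean and SD (bars), Cre-positive left of Cre-negative: the share of gated cells, the share with 10 or more Lyz2 UMIs, the share of gated cells with at least 2 nonclassical markers at full depth, and the summed CPM of 4 class II genes. Only the second panel shows groups that do not overlap.

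Gene expression in the gated cells was then compared between genotypes, with UMIs summed per mouse. Of 1464 genes tested, 0 passed at an adjusted p of 0.05 (percent called 0) by the quasi-likelihood test of edgeR. At the same time 26 genes had an unadjusted p under 0.05 (1.78%), and DESeq2 called 1 gene, Cxcl9. The groups did not overlap for 105 genes (7.17%), 53 of them higher (3.62%) and 52 lower (3.55%) in Cre-positive mice. Counts of this size were simulated from the spread that edgeR had fitted to these data. Changes had been put into 186 of the 1316 genes in these counts. There the test recovered 94.6% of changes of 2 and 30.9% of changes of 1 on the log2 scale. The simulation held no single cells with most UMIs of a gene, so these shares may not hold for the real sums. Recovery with fewer changed genes was not tested. The 10 genes of smallest p are described next, and none of them passed.

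Cxcl9 (chromosome 5, 92321347 to 92328079, minus strand), an interferon-gamma-induced chemokine that draws CXCR3-bearing T cells, had 2, 3 and 4 UMIs in Cre-positive mice 1 to 3, and 14, 79 and 28 UMIs in Cre-negative mice 1 to 3. All Cre-negative mice stood above all Cre-positive mice. A single cell of cluster 5 held 74 of the 79 UMIs of Cre-negative mouse 2. The log2 fold change was -3.79 ± 0.74 (SE; edgeR adjusted p = 0.607), and the DESeq2 adjusted p was 0.00118. Without that 1 cell the UMIs of the Cre-negative mice were 14, 5 and 28, and the gene no longer passed the low-count filter. Cxcl10, a related chemokine, had 6, 0 and 0 UMIs in Cre-positive mice 1 to 3, and 5, 156 and 1 UMIs in Cre-negative mice 1 to 3, so its level too lay mostly in Cre-negative mouse 2.

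Marco (chromosome 1, 120474538 to 120505024, minus strand), a scavenger receptor of macrophages, had 21, 22 and 13 UMIs in Cre-positive mice 1 to 3, and 0, 2 and 6 UMIs in Cre-negative mice 1 to 3. Cd63 (chromosome 10, 128900989 to 128912822, plus strand), a tetraspanin of lysosomes and late endosomes, had 16, 35 and 12 UMIs in Cre-positive mice 1 to 3, and 5, 3 and 4 UMIs in Cre-negative mice 1 to 3. In both genes every Cre-positive mouse stood above every Cre-negative mouse. The log2 fold changes were 2.80 ± 0.65 for Marco (edgeR adjusted p = 0.633) and 2.25 ± 0.50 for Cd63 (edgeR adjusted p = 0.607). Marco came from 4, 6 and 4 cells in Cre-positive mice 1 to 3 and from 0, 1 and 3 cells in Cre-negative mice 1 to 3. Cluster 2, of which both are leading genes, held 76.6% of the Marco UMIs and 76.0% of the Cd63 UMIs. It took 8, 6 and 3 of its cells from Cre-positive mice 1 to 3, and 0, 2 and 4 from Cre-negative mice 1 to 3. A difference in level within a class of cells and a difference in which cells were gated cannot be told apart here. Of 12 macrophage markers, Marco among them, 7 were detected and C1qa, C1qb, C1qc, Mertk and Mrc1 were at 0. Together they summed to 479 to 761 CPM in the Cre-positive and 249 to 515 CPM in Cre-negative mice. Marco alone averaged 176 ± 81.7 CPM in the Cre-positive and 19.8 ± 19.8 CPM in Cre-negative mice. The sum is therefore not separate from Marco. The part of the other markers in the Marco and Cd63 values was not tested.

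The other genes of smallest p each had an edgeR adjusted p of 0.999. Higher in Cre-positive mice were Cyfip1, a regulator of actin branching, with a log2 fold change of 1.82 ± 0.57 (SE), and Clec4a2, an inhibitory lectin of myeloid cells, with 1.46 ± 0.50. Cd68, a lysosomal glycoprotein of phagocytes, had 203, 249.7 and 224 CPM in Cre-positive mice 1 to 3 and 62.2, 99.1 and 139 CPM in Cre-negative mice 1 to 3. Ddost, a subunit of the enzyme that adds glycans to proteins, had a log2 fold change of 1.14 ± 0.41. Lower were the integrin chain Itgb7 at -1.27 ± 0.47, the interferon-induced Ly6e at -1.05 ± 0.39 and Sod2, the mitochondrial superoxide dismutase, at -1.30 ± 0.48. Sod2 was the only gene of the 10 in which the groups overlapped. Ly6e turned to 0.03 without the gated cells that hold UMIs of lymphoid markers.

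**Figure D5:**
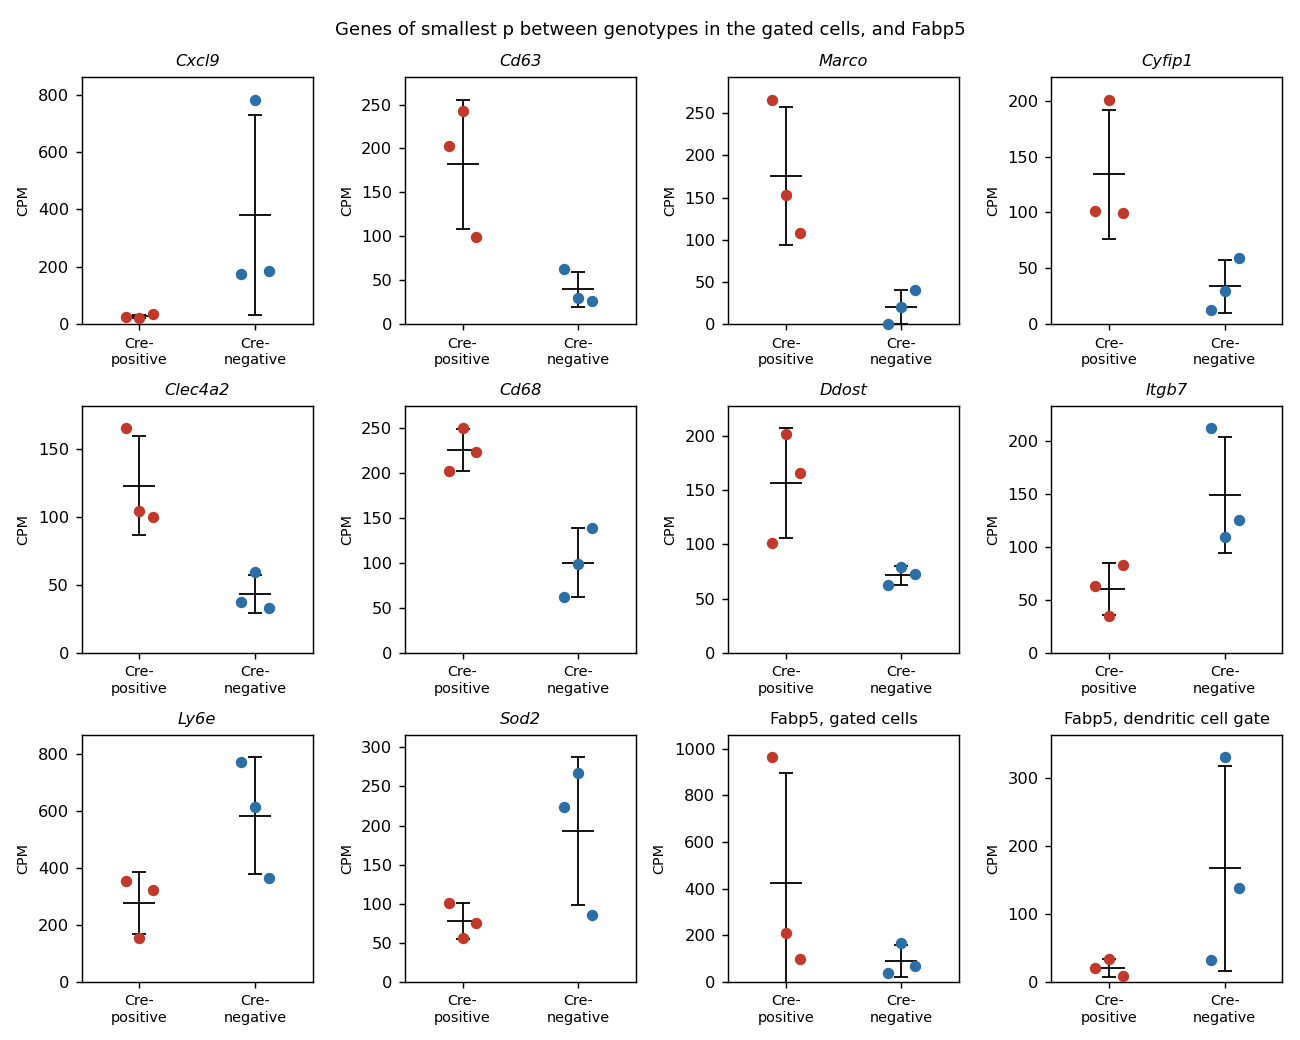
CPM by mouse (points) with mean and SD (bars, cut at 0) for the 10 genes of smallest p in the gated cells, and for Fabp5 in the gated cells and in the dendritic cell gate, Cre-positive left of Cre-negative. Cxcl9 in Cre-negative mouse 2 and Fabp5 in Cre-positive mouse 1 stand far above the rest of their groups.

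The genes of the gate itself passed no test between genotypes. Csf1r had 21, 19 and 19 UMIs in Cre-positive mice 1 to 3, and 13, 10 and 15 UMIs in Cre-negative mice 1 to 3, and its log2 fold change was 0.62 ± 0.40 (SE). Ccr2 stood at 234 ± 164 CPM in the Cre-positive and 203 ± 13.5 CPM in Cre-negative mice. Ifitm3 stood at 875 ± 308 CPM in the Cre-positive and 846 ± 611 CPM in Cre-negative mice. Plac8 stood at 1208 ± 598 CPM in the Cre-positive and 1638 ± 886 CPM in Cre-negative mice, and Cebpb at 317 ± 181 CPM and 386 ± 148 CPM in the same order of genotypes. Fcgr1 with 10 UMIs, Ly6c2 with 26 and Cd14 with 41 were too low to be tested. Of the Cd14 UMIs, 19 came from 1 cell of Cre-negative mouse 2.

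Gene lists are described by counts beside those of all 1464 genes, of which 802 were higher in Cre-positive mice, with a median log2 fold change of 0.04. None of the list genes passed. Of classical monocyte genes, 11 of 25 could be tested, and 9 were higher with a median of 0.15, among them Lyz2 at 0.74 and Lst1 at 0.55. Of nonclassical genes, 6 of 20 could be tested, 3 higher and 3 lower, with Itgal, a chain of the integrin LFA-1, at -1.42. Of lineage factors and growth factor receptors, 9 of 15 were higher, with Csf2ra, a chain of the GM-CSF receptor, at 0.87 and Irf8, a transcription factor of monocytes and dendritic cells, at -0.28. Many members of these lists were too low in the gated cells to enter the fit, so the counts describe the tested members alone.

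Among effector genes, 7 of 8 tested Fc, scavenger and phagocytic receptors were higher in Cre-positive mice (median log2 fold change 0.53), and the groups did not overlap in 3 of them, Marco, Clec4a2 and Cd68, against 53 higher and not overlapping among all 1464 genes (3.62%). Tyrobp, the adaptor of many myeloid receptors, was at 0.45 and Fcer1g, the common Fc receptor gamma chain, at 0.39. Of lysosomal genes and cathepsins, 15 of 20 were higher (median 0.44), with the cathepsin Ctss at 0.62 and Psap at -0.38. Of class II presentation genes, 10 of 11 were higher (median 0.26). Of genes that mark RNA quality, 11 of 13 were also higher (median 0.16), with mt-Nd1 at 0.30 and mt-Nd2 at 0.34 not overlapping between genotypes. Their part in the other lists was not tested. Of interferon-gamma GTPases and class I machinery, 7 of 13 were lower (median -0.36), with the immunoproteasome subunit Psmb8 at -0.41. Of type I interferon genes, 5 of 10 were higher and 5 lower (median 0.02). Of inflammatory cytokines and chemokines, 6 of 9 were higher. Il1b, a cytokine of activated myeloid cells, had 53, 145 and 122 UMIs in Cre-positive mice 1 to 3, and 2, 144 and 169 UMIs in Cre-negative mice 1 to 3.

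The genotype effect in the gated cells was compared with that in the conventional dendritic cell gate, as an interaction with the mouse as block. Of 2064 genes, 57 had an unadjusted p under 0.05 (2.76%) and 1 passed adjustment (0.0484%), Fabp5 (chromosome 3, 10012548 to 10016607, plus strand), a fatty acid-binding protein. In the gated cells it had 76, 30 and 12 UMIs in Cre-positive mice 1 to 3, and 3, 17 and 10 UMIs in Cre-negative mice 1 to 3. In the dendritic gate it had 3, 7 and 1 UMIs in Cre-positive mice 1 to 3, and 4, 66 and 15 UMIs in Cre-negative mice 1 to 3. As CPM the gated cells stood at 424 ± 471 in the Cre-positive and 90.6 ± 68.9 in Cre-negative mice, and the dendritic gate at 20.3 ± 12.6 in the Cre-positive and 167 ± 151 in Cre-negative mice. The difference of the log2 effects was 4.73 (edgeR adjusted p = 0.00271), although the groups overlapped in the gated cells and also in the dendritic gate. In Cre-positive mouse 1 a single cell of cluster 2 held 56 of the 76 UMIs, and without it the difference was 3.90 (edgeR adjusted p = 0.00859). Cluster 2 held 65.5% of all Fabp5 UMIs in the gated cells, and its cells came unequally from the mice, as given for Marco and Cd63.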

How the data were processed

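The authors deposited whole UMI counts for each gene and barcode, from Cell Ranger 6.1.2 and mm10 according to the submitters' processing notes; which annotation release was used is not given in the sources used here. The 6 libraries, 1 per mouse, held 8209 to 10936 barcodes and 47149014 to 61321105 UMIs. Cells were kept by the limits in the opening, and 370 of 55938 distinct barcodes occurred in more than 1 library. Of the gated cells, 2 shared their barcode with a cell of another library. Positions come from GENCODE M21 by Ensembl identifier (30934 of 31053 features matched). Values of the floxed gene are not reported.

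Doublets were scored with Scrublet in scanpy 1.11.5, counting the top 0.8% per 1000 barcodes of a library as doublets; they were kept in the main analysis and left out as an alternative. Gated cells were clustered on 1000 variable genes, 8 principal components and 10 neighbours at resolution 1.0 (leidenalg 0.10.2). The comparison gates needed at least 2 of C1qa, C1qb and C1qc, or at least 2 of 8 dendritic genes (Flt3, Zbtb46, Xcr1, Clec9a, Itgax, Cd209a, Clec10a and Batf3) without Siglech, Fscn1 or C1q. Both left out the gated cells by definition, of which 43 held at least 2 of the 8 dendritic genes, and cells with a Cd3e, Cd79a or Ms4a1 UMI.

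Counts were summed per mouse and tested with edgeR 4.0.16 (TMM, filterByExpr, robust quasi-likelihood F test) in R 4.3.3, with Benjamini-Hochberg adjustment over all genes tested; DESeq2 1.42.0 was an alternative. Each SE is the absolute log2 fold change divided by the root of its F statistic. The test was checked on simulated counts for 1316 genes, with 9 false calls. Shares were compared with exact two-sided permutation tests over mice. The named genes are those of the gate, the 10 of smallest p if fewer than 10 pass, up to 6 per list by level and p, and those most enriched over the comparison gates; the text prints a selection. The members and lists were chosen with earlier results of these data known. Same-numbered mice are not described as paired.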

Additional observations from a re-analysis of the deposited data

Results flagged for a closer look

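The genotype effect on Fabp5 differed between the gated cells and the conventional dendritic cell gate (edgeR interaction, adjusted p = 0.00271). In the gated cells Fabp5 stood at 964, 208 and 99.5 CPM in Cre-positive mice 1 to 3 and at 37.3, 168 and 66.1 CPM in Cre-negative mice 1 to 3. In the dendritic gate it stood at 20.1, 32.9 and 7.72 CPM in Cre-positive mice 1 to 3 and at 31.7, 330.0 and 138 CPM in Cre-negative mice 1 to 3. The highest values of both gates belong to 1 mouse each, Cre-positive mouse 1 in the gated cells and Cre-negative mouse 2 in the dendritic gate. The adjusted p was 0.0417 without Cre-positive mouse 1 and 0.0166 without Cre-negative mouse 2.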

How the results depend on the processing

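Alternatives changed 1 choice at a time, except the stricter gate, which changed both its limits, and those on at least 10 Lyz2 UMIs, on Siglech and on single cells were chosen after seeing the data. The difference in the share of gated cells (0.0129 percentage points, Cre-positive minus Cre-negative) turned to -0.0323 at a mitochondrial limit of 5%, to -0.000595 under a stricter gate (2 Lyz2 UMIs, 3 genes) and to -0.0177 when cells were thinned before the gate. Leaving out 1 mouse gave -0.0108 to 0.0264. The difference in the Ly6c2 share (-0.365 points) turned to 1.85 at the 5% limit and 0.0975 without doublets, was 0 without cells with dendritic markers, with at least 10 Lyz2 UMIs or without Siglech cells, and ranged from -1.75 to 1.39 when 1 mouse was left out. The nonclassical difference (-3.70 points) turned to 0.556 without cells with lymphoid UMIs and ranged from -6.66 to -0.409 without 1 mouse. The class II difference ranged from -932 to 18219 CPM without 1 mouse. The count of 0 genes between genotypes became 8 of 11931 without the low-count filter (Marco, Ccl21a, Pla2g2d, Cxcl9, Cd69, Cd63, Mmp12 and Ifi47) and 1 with DESeq2, and was 0 in the other alternatives, the replicate block included. Same-numbered mice correlated at 0.205, -0.121 and -0.0304 in their deviations. With so few cells a mouse these values cannot decide whether the numbers pair mice, and the labels state no pairing. The interaction called 7 genes without the filter, and 1 to 2 without 1 mouse; its second gene was Ube2c, Cxcl9, Jund or Malat1 without Cre-positive mouse 1, Cre-negative mouse 1, 2 or 3. Fabp5 passed in each of these, with other size factors and without the gated cell holding most Fabp5 UMIs. Its edgeR adjusted p ran from 2.381e-09 to 0.0417. No single cell of the dendritic gate was left out, and the other gates and filters on cells were not run for the interaction. Ly6e turned to 0.0261 (log2) without cells with lymphoid UMIs. With 3 mice a group, no difference in a share can reach p under 0.1, and 9 to 24 cells a mouse limit the precision of each share. The causes of these changes were not tested.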

Other observations

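The 301 cells that met the gate except for Lyz2 differed from the gated cells in what they held. Ly6c2 was detected in 34.2% of them and Siglech in 47.5%, against 6.93% and 11.9% of the gated cells, while Csf1r was detected in 3.99% of them and in 39.6% of the gated cells. These cells have a median depth of 6396 UMIs, against 5120 in the gated cells, and the shares are values of cells chosen by the same genes, without a test.

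Of 13 neutrophil markers, 8 had a UMI in the gated cells, while Ly6g, Camp, Ngp, Ltf and Elane were at 0. The summed level was 12.7 to 118 CPM in Cre-positive and 0 to 1308 CPM in Cre-negative mice. All 78 UMIs of S100a9 came from 1 cell of Cre-negative mouse 2.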
